A study of Mus musculus with 40 samples.

Results

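Hematopoietic stem cells (HSCs) of mice labelled Hira KO were compared by how far they had diluted a histone label, as 3 GFP-low libraries against 3 GFP-high libraries. The members are these 6 libraries, taken by their labels for genotype, cell type and GFP gate, of 40 in the series. The mice carried Mx1-Cre, floxed Hira (Hira fl/fl), Rosa26-M2rtTA and TetOP-H2B-GFP on a C57BL/6 background, so doxycycline switches on a GFP-tagged histone H2B in cells that express the transactivator. Mice in all groups used here drank doxycycline (2 mg/ml, sweetened with sucrose at 10 mg/ml) for a 6-week pulse. After it was withdrawn they received 2 doses of 20 µg poly(I:C), which induces interferon and so Mx1-Cre. Bone marrow was taken 15 days after the final dose, at the end of a 17-day chase. For comparison, 6 WT HSC libraries (3 GFP-low and 3 GFP-high) and 6 libraries of Hira KO multipotent progenitors (MPPs, likewise 3 and 3) from the same cohort were used. The treatment text is the same for WT samples, and it does not list their alleles separately. Age and sex of the mice are not given in the labels. Mx1-Cre responds in many cell types, not in blood cells alone. The Hira transcript did not separate the gates and, within KO libraries, does not check the deletion: it was at 1.06, 2.70 and 2.31 FPKM in GFP-low and 1.58, 2.03 and 1.57 FPKM in GFP-high KO HSCs.

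As background, each division shares labelled H2B between the daughter cells, so GFP falls with the number of divisions since the label was switched off. Cells that keep GFP are those that divided rarely, and in bone marrow the HSCs with the longest self-renewal are known to lie mostly among them. HIRA is a chaperone that deposits the histone variant H3.3 outside DNA replication. HSCs give rise to erythroid, megakaryocyte, myeloid and lymphoid cells, and megakaryocyte genes are known to be active in part of the HSC pool.

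Reads assigned to genes were recovered from the steps of the deposited values, for genes listed for both gates and without the ribosomal RNA Rn45s. The GFP-low KO libraries held 7738107, 6500810 and 6664538 such reads, and the GFP-high KO libraries 6560210, 6669401 and 6523411. Levels are FPKM (fragments per length of gene and depth of library), rescaled together over the 6 libraries. A difference is GFP-low minus GFP-high on the log2(FPKM + 1) scale, which understates changes of low genes. Every gate was deposited in a table of its own, so a technical difference between the tables cannot be told apart from the gate. HSC markers (Hlf, Mecom, Procr, Slamf1, Kit, Ly6a, Fgd5, Ctnnal1 and Hoxb5) all reached 1 FPKM in at least 1 library. Their summed level was 212 to 375 FPKM in GFP-low and 385 to 465 FPKM in GFP-high libraries. Of the endothelial and stromal genes, Cdh5, Kdr, Col1a1 and Lepr stayed under 1 FPKM in every library while Tie1 was at 22.5 to 34.5 FPKM in GFP-low and 32.4 to 36.1 FPKM in GFP-high libraries, and the T cell gene Cd3e and the B cell gene Ms4a1 were at or near 0 in all 6. Library 3 of the GFP-low group stood apart on the first principal component (score 42.8, the other 5 from -16.8 to 3.2; 39.2% of the variance). Its summed neutrophil marker level (S100a8, S100a9, Camp and Ltf) was 24200 FPKM, against 1810 and 4140 FPKM in the other GFP-low and 3650 to 4700 FPKM in the GFP-high libraries. The part of these transcripts in the results was not tested.

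Replicate numbers were taken as pairs of libraries. For every number, the GFP-low and the GFP-high library tended to deviate from their group means in the same direction. The correlations over genes were modest (0.16, 0.24 and 0.21), and libraries with different numbers gave -0.14 to -0.04. Deviations from a mean of 3 sum to 0, so the negative values follow from the positive ones and are no separate evidence of pairing. For each gene 2 fits are therefore given: an unpaired test, and a paired test with the replicate number as a block. The libraries are described as biological replicates, but whether a number marks a mouse, a litter or a sort day is not stated.

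In the unpaired test 4 of 10777 genes passed (0.0371%), all higher in GFP-low cells: Pf4, Gata1, Tuba8 and Cenph. No gene was lower at the same threshold in limma, where 561 genes (5.21%) were lower and 655 (6.08%) higher at an unadjusted p under 0.05. The same 4 genes were among the 50 (0.464%) that passed the paired test, of which 31 were higher (0.288%) and 19 lower (0.176%). Without pair 1, 2 or 3 the paired test called 23, 3 and 167 genes. A joint fit with the WT HSC libraries, which shares their spread, called 85 of 11259 genes (0.755%). The groups did not overlap for 962 genes on the higher side (8.93%) and for 856 on the lower side (7.94%).

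Pf4 encodes platelet factor 4, a chemokine of megakaryocytes and platelets that also marks part of the HSC pool. It was at 321, 208 and 290 FPKM in GFP-low KO HSCs and at 45.7, 76.0 and 31.6 FPKM in GFP-high KO HSCs. Every GFP-low library lay far above every GFP-high library. The difference was 2.46 (SE 0.29, adjusted p = 0.0476; paired adjusted p = 0.0363). Pf4 (chr5:90772435-90773383 in GRCm38) also serves as an example of a blood lineage promoter. The 300 bases around its start (chr5:90772185-90772484, plus strand, from RefSeq GRCm38.p6) are printed here. In capitals are an AGATAA word, which GATA factors can bind, and CCAAT words on either strand.
Pf4: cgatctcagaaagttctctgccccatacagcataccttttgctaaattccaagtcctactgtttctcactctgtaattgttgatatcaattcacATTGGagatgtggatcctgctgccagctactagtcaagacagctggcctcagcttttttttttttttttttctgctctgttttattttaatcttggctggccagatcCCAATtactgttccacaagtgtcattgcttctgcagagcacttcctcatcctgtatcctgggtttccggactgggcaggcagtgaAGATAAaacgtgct
The AGATAA word begins 36 bases after the annotated start. Searched on both strands of 250 bases before to 50 after the start, AGATAA occurred in 5 of 20 promoters of the megakaryocyte list (25.0%) and in 6 of 22 of the erythroid list (27.3%). Among the 8662 tested genes with a promoter in the table, 541 held it (6.25%). CCAAT occurred in 7 of 20 promoters of the megakaryocyte list (35%) and in 11 of 22 of the erythroid list (50%). Of all 8662 promoters 3451 held CCAAT (39.8%). A match is only a match of letters.

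Gata1, the master transcription factor of erythroid and megakaryocyte cells (chrX:7959260-7976663), was at 15.2, 21.3 and 29.3 FPKM in GFP-low and 2.92, 3.82 and 4.97 FPKM in GFP-high KO HSCs. All GFP-low libraries lay well above all GFP-high libraries (difference 2.20, SE 0.25, adjusted p = 0.0432; paired adjusted p = 0.00898). Tuba8, an alpha-tubulin isotype (chr6:121210734-121226098), was at 32.6, 31.4 and 26.4 FPKM in GFP-low and 7.33, 9.92 and 8.33 FPKM in GFP-high KO HSCs. Its GFP-low values were close to each other and far from all GFP-high values (difference 1.71, SE 0.16, adjusted p = 0.0229; paired adjusted p = 0.0201). Cenph, a subunit of the inner kinetochore (chr13:100759674-100775903), was at 25.0, 21.5 and 23.8 FPKM in GFP-low and 8.03, 8.85 and 10.1 FPKM in GFP-high KO HSCs. The groups again did not overlap (difference 1.29, SE 0.14, adjusted p = 0.0432; paired adjusted p = 0.0347). These unpaired calls rest on few libraries: without GFP-low replicate 2, GFP-high replicate 1 or GFP-high replicate 3 none of the 4 passed, with differences of 1.22 to 2.64. Without GFP-low replicate 1 or 3 Tuba8 and Gata1 still passed, and without GFP-high replicate 2 Tuba8 and Pf4 did.

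**Figure D1:**
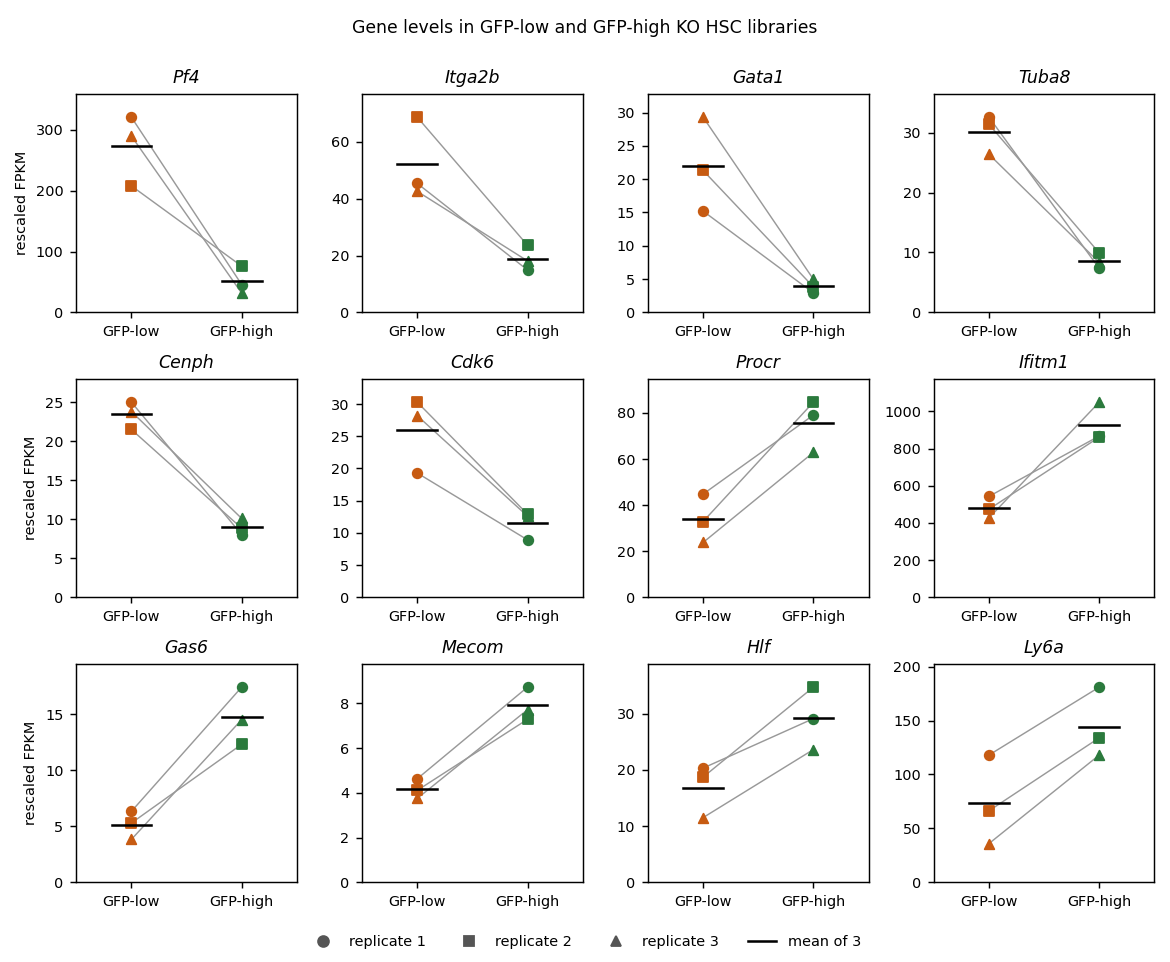
Rescaled FPKM of 12 genes (y axis, from 0) in the 3 GFP-low (left, orange) and 3 GFP-high (right, green) KO HSC libraries; symbols and lines join libraries of the same replicate number and the black bar is the mean of 3. Pf4, Itga2b, Gata1, Tuba8, Cenph and Cdk6 lie higher in each GFP-low library, and the groups of Procr, Ifitm1, Gas6, Mecom and Hlf lie lower without overlap; for Ly6a the highest GFP-low and the lowest GFP-high value both round to 118 FPKM.

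Of 29 tested megakaryocyte and platelet genes (32 listed of 33 named), 19 had a positive difference and the list's median was 0.26, against 0.00 over all tested genes. In the unpaired test 1 rose (Pf4), where 0.0371% of all genes passed, and in the paired test 2 did (Pf4 and Itga2b), where 0.288% of all genes were higher. Itga2b, the CD41 integrin of the megakaryocyte lineage that is also present on HSCs, was at 45.4, 68.7 and 42.6 FPKM in GFP-low and 14.9, 23.6 and 18.1 FPKM in GFP-high KO HSCs. Each GFP-low value exceeded all GFP-high values (difference 1.41, SE 0.22, adjusted p = 0.138; paired adjusted p = 0.0201). Vwf, the clotting protein used to mark platelet-biased HSCs, was at 5.27, 4.01 and 4.27 FPKM in GFP-low and 5.34, 3.45 and 4.90 FPKM in GFP-high cells, with no separation (difference 0.00). Gp1bb, a platelet glycoprotein subunit, was at or near 0 in all 6 libraries, while the platelet glycoprotein Gp9 was at 74.1 to 132 FPKM in GFP-low and 66.6 to 81.0 FPKM in GFP-high libraries. Among other members Cavin2, a caveolar coat protein abundant in platelets, was at 8.24, 8.05 and 9.18 FPKM in GFP-low and 5.62, 4.84 and 4.13 FPKM in GFP-high cells, without overlap but not past either test (difference 0.70, adjusted p = 0.245).

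Erythroid genes leaned the same way, more so in the pair of replicate 3. Of 32 tested members 30 had a positive difference and 14 (43.8%) had an unadjusted p under 0.05 on the higher side, against 6.08% of all genes, and Gata1 alone passed either test. The list's median difference was 0.62, with pair medians of 0.15, 0.46 and 1.13. Without GFP-low replicate 3 the median was 0.33 and 7 (21.9%) had an unadjusted p under 0.05 on the higher side, against 4.13% of all genes in that fit. Klf1, the erythroid Krüppel-like factor, was at 15.8, 26.4 and 45.2 FPKM in GFP-low and 13.2, 9.13 and 9.24 FPKM in GFP-high cells. Its groups did not overlap, with the widest spread in GFP-low (difference 1.28, SE 0.33, adjusted p = 0.277). Epor, the erythropoietin receptor, was at 14.0, 16.7 and 24.6 FPKM in GFP-low and 8.87, 10.1 and 9.82 FPKM in GFP-high cells (difference 0.84, adjusted p = 0.251; paired adjusted p = 0.0911). Hba-a1, a globin gene of later erythroid cells, overlapped between gates and was at 201, 135 and 510 FPKM in GFP-low and 183, 64.7 and 69.9 FPKM in GFP-high cells. In bulk libraries a larger share of cells with a transcript and more of it per cell cannot be told apart. Mfsd2b, a sphingosine 1-phosphate exporter of red cells and platelets that was in no list, was at 7.91, 12.2 and 12.9 FPKM in GFP-low and 1.82, 2.64 and 3.23 FPKM in GFP-high cells. It passed the paired test (difference 1.75, adjusted p = 0.0815; paired adjusted p = 0.0201).

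Of 63 tested mitosis genes, 62 had a positive difference in GFP-low KO HSCs, with a median of 0.71 (pair medians 0.42, 0.70 and 0.84). None passed the unpaired test, and 9 (14.3%) passed the paired test on the higher side, against 0.288% of all genes. At an unadjusted p under 0.05, 38 were higher (60.3%, against 6.08% of all genes) and 0 lower. Without GFP-low replicate 3 the median was 0.44 and 21 of 61 tested members were higher at that p (34.4%, against 4.13% of all genes in that fit). The exception to the direction was Ube2s, a ubiquitin-conjugating enzyme of the anaphase-promoting complex, with a difference of -0.37.

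The 9 members were Ckap2l, Cdca3, Spc24, Cdca8, Birc5, Hmgb2, Cks2, Plk1 and Ccnb2. Ckap2l, a spindle protein, was at 10.2, 7.74 and 14.0 FPKM in GFP-low and 2.61, 2.88 and 5.03 FPKM in GFP-high KO HSCs. No GFP-high library reached the lowest GFP-low library (difference 1.37, SE 0.26, adjusted p = 0.194; paired adjusted p = 0.0363). Birc5 (survivin) and Cdca8 (borealin) are subunits of the chromosomal passenger complex, which corrects spindle attachment. Birc5 was at 26.7, 35.2 and 49.3 FPKM in GFP-low and 15.3, 16.5 and 23.4 FPKM in GFP-high cells (difference 0.95, paired adjusted p = 0.0379). Cdca8 was at 16.3, 15.8 and 24.9 FPKM in GFP-low and 7.70, 7.58 and 11.8 FPKM in GFP-high cells (difference 0.99, paired adjusted p = 0.0379). Neither gene's groups overlapped, and within each group replicate 3 was highest. Aurkb, the kinase of that complex, was at 21.8, 21.1 and 33.9 FPKM in GFP-low and 13.5, 13.4 and 15.2 FPKM in GFP-high cells and did not pass (difference 0.79, paired adjusted p = 0.0845). Plk1, a mitotic kinase, was at 13.2, 17.8 and 29.9 FPKM in GFP-low and 5.37, 10.3 and 14.3 FPKM in GFP-high cells. Its groups overlapped, but each GFP-low library was above the GFP-high library of its own number (difference 0.97, adjusted p = 0.386; paired adjusted p = 0.0476). Ccnb2, a B-type cyclin that partners Cdk1, had the same pattern at 39.3, 76.5 and 116 FPKM in GFP-low and 25.3, 35.2 and 48.6 FPKM in GFP-high cells (difference 0.98, adjusted p = 0.388; paired adjusted p = 0.0429). Mki67, the proliferation antigen Ki-67, was at 5.0, 4.91 and 6.80 FPKM in GFP-low and 2.16, 2.65 and 2.87 FPKM in GFP-high cells. It and Top2a, the mitotic topoisomerase (11.6, 10.3 and 14.9 FPKM in GFP-low, 5.45, 5.6 and 7.13 FPKM in GFP-high), did not overlap between gates and did not pass the paired test (paired adjusted p = 0.0897 and 0.0576).

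Promoters of mitosis genes are known to carry a short element, the cell cycle genes homology region (CHR, letters TTTGAA), which recruits a repressor in resting cells and an activator in dividing ones, often downstream of CCAAT words. TTTGAA on either strand was found in 38 of 53 promoters of the mitosis list (71.7%), in 4 of 42 of the DNA replication list (9.52%) and in 1047 of 8662 promoters of all tested genes (12.1%). CCAAT was found in 39 of the same 53 (73.6%), 27 of 42 (64.3%) and 3451 of 8662 (39.8%). Of the 9 genes past the paired test, 8 had a promoter in the table and 6 of these held TTTGAA. The 4 of them with the smallest unpaired p are printed from RefSeq GRCm38.p6 to show the element and its place, each 5′ to 3′ on the gene's strand from 250 bases before to 50 after the annotated start, with TTTGAA (or TTCAAA) and CCAAT (or ATTGG) in capitals. They are Ckap2l (chr2:129297163-129297462, minus strand), Cdca3 (chr6:124829926-124830225, plus strand), Cdca8 (chr4:124936868-124937167, minus strand) and Hmgb2 (chr8:57511593-57511892, plus strand).
Ckap2l: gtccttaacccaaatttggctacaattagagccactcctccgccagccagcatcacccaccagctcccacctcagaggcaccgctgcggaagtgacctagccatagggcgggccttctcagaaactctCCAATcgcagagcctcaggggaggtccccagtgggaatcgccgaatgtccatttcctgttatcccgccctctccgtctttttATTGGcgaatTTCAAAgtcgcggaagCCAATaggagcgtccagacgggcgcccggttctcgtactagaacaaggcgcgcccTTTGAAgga
Cdca3: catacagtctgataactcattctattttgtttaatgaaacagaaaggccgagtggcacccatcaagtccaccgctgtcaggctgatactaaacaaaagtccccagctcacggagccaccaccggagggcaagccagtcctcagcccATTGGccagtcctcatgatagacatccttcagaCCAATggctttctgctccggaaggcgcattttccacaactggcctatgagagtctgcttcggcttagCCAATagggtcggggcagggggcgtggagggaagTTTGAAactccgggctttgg
Cdca8: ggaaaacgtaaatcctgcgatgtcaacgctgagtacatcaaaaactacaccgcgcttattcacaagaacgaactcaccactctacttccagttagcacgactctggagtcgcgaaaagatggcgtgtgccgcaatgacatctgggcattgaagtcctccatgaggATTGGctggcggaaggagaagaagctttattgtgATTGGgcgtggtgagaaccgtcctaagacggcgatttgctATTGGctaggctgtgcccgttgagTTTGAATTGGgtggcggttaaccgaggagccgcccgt
Hmgb2: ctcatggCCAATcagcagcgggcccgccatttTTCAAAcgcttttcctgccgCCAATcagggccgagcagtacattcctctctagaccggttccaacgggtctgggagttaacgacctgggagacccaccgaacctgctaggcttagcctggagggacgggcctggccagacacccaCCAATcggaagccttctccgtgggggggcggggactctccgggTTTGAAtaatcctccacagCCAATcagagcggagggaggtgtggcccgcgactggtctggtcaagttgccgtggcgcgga
Positions take the annotated start as base 0. Read in the gene's direction, TTTGAA began at base 41 in Ckap2l, 30 in Cdca3, 13 in Cdca8 and -30 in Hmgb2. Each of these lay after a CCAAT word. The reversed form TTCAAA also began at base -30 in Ckap2l and at base -218 in Hmgb2. In Cdca8 the element and a reversed CCAAT word share a base. These are matches of letters and were not measured as binding.

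Genes of DNA replication followed the same direction. Of 50 tested members 49 had a positive difference (median 0.53; pair medians 0.47, 0.61 and 0.54; 0.41 without GFP-low replicate 3). None passed the unpaired test, 31 (62.0%, against 6.08% of all genes) had an unadjusted p under 0.05 on the higher side, and Rrm2, Prim1 and Dut passed the paired test (6.00%, against 0.288%). In the fit without GFP-low replicate 3, 23 of 50 (46%) were higher at the unadjusted p, against 4.13% of all genes. Rrm2, the regulated subunit of ribonucleotide reductase, was at 47.6, 31.8 and 58.4 FPKM in GFP-low and 22.5, 16.4 and 26.0 FPKM in GFP-high KO HSCs. Each library pair showed about the same ratio, and the groups did not overlap (difference 1.03, SE 0.24, adjusted p = 0.246; paired SE 0.11, paired adjusted p = 0.0347). Prim1, the primase subunit that starts new strands, was at 18.5, 21.6 and 26.8 FPKM in GFP-low and 9.20, 11.6 and 14.5 FPKM in GFP-high cells (difference 0.87, paired adjusted p = 0.0392). Dut, which removes dUTP before it is built into DNA, was at 100, 111 and 134 FPKM in GFP-low and 59.4, 56.4 and 86.5 FPKM in GFP-high cells (difference 0.78, paired adjusted p = 0.0388). Mcm2, a subunit of the replicative helicase, was at 33.6, 46.6 and 57.5 FPKM in GFP-low and 32.7, 28.8 and 43.1 FPKM in GFP-high cells, overlapping (difference 0.37, adjusted p = 0.543). Pcna, the polymerase clamp, did not overlap at 89.7, 72 and 80.9 FPKM in GFP-low and 65.2, 51.8 and 64.6 FPKM in GFP-high cells (difference 0.41, paired adjusted p = 0.135). Pclaf, a Pcna-binding factor outside the list, passed the paired test at 12.4, 11.7 and 19.2 FPKM in GFP-low and 4.62, 5.33 and 7.38 FPKM in GFP-high cells (difference 1.18, paired adjusted p = 0.0363).

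At the entry into the cycle, Cdk6, the G1 kinase whose level is known to set how readily an HSC leaves quiescence, was at 19.3, 30.3 and 28.2 FPKM in GFP-low and 8.92, 12.9 and 12.6 FPKM in GFP-high KO HSCs. All GFP-low libraries lay above all GFP-high libraries (difference 1.10, SE 0.21, adjusted p = 0.194; paired adjusted p = 0.0347). It was the single gene of 25 tested in the list of G1 cyclins, CDKs and Rb genes to pass (list median 0.21, 18 positive). Of all genes 0.288% were higher in the paired test. Ccnd1, a D-type cyclin, overlapped at 6.23, 6.90 and 4.31 FPKM in GFP-low and 7.58, 6.32 and 7.60 FPKM in GFP-high cells. Myc overlapped as well, at 80.7, 69.4 and 77.9 FPKM in GFP-low and 67.6, 55.0 and 76.0 FPKM in GFP-high cells (difference 0.21, adjusted p = 0.631). The CDK inhibitor and quiescence list was balanced, with 11 positive and 11 negative of 23 and a median of 0.00. In the paired test 2 of its 23 tested members were lower, where 0.176% of all genes were. Those were Gas6, described below, and Txnip. Txnip, a thioredoxin inhibitor that restrains glucose uptake, was at 269, 185 and 99.7 FPKM in GFP-low and 430, 289 and 170 FPKM in GFP-high cells, falling within each pair while the groups overlapped (difference -0.69, paired adjusted p = 0.0379). Cdkn1c (p57), an inhibitor tied to HSC quiescence, was at 4.97, 2.97 and 4.48 FPKM in GFP-low and 5.12, 8.06 and 5.0 FPKM in GFP-high cells and did not pass (difference -0.45, adjusted p = 0.492).

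**Figure D2:**
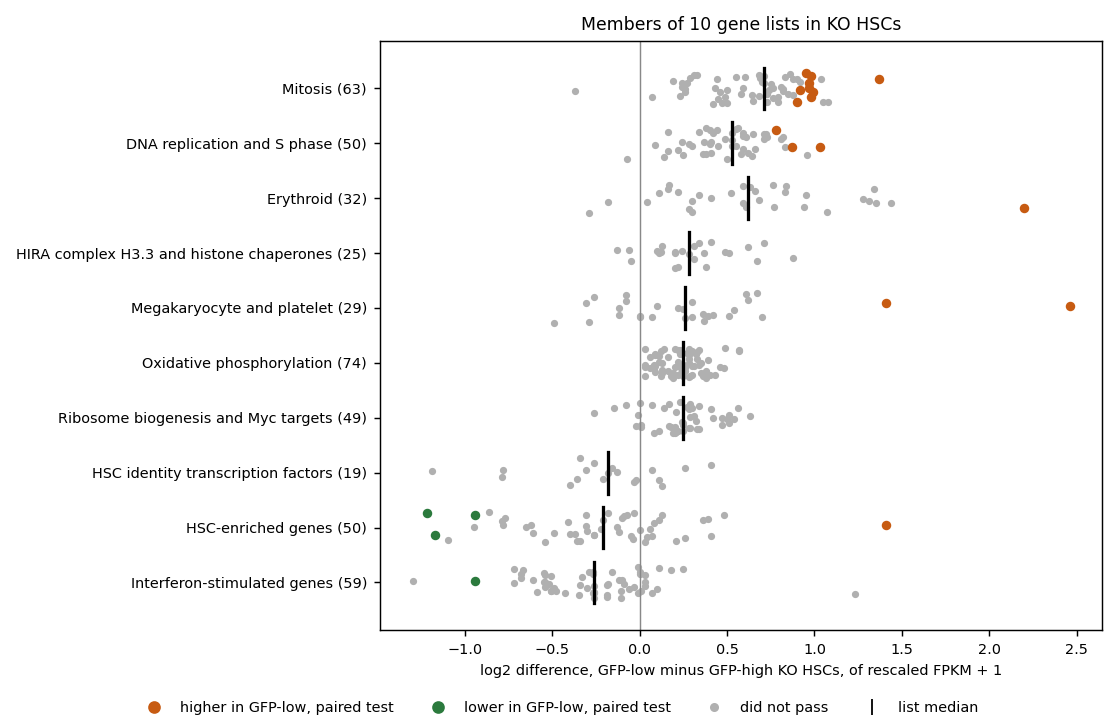
Each point is a tested gene of 1 of 10 lists (number of tested members in brackets), placed by its log2 difference, GFP-low minus GFP-high KO HSCs (x axis); the vertical scatter within a list has no meaning and the black bar is the list median. Points of the mitosis list lie right of 0 except Ube2s (median 0.71), while HSC-enriched and interferon-stimulated genes have medians of -0.21 and -0.26.

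Transcripts enriched in HSCs lay mostly on the lower side in the GFP-low gate. Of 50 tested HSC-enriched genes 35 had a negative difference (median -0.21; -0.11 without GFP-low replicate 3), and 13 (26.0%) were lower at an unadjusted p under 0.05, against 5.21% of all genes. In the paired test 3 fell (Procr, Ifitm1 and Sult1a1), which is 6.0% against 0.176% of all genes. There 1 rose (Itga2b), which is 2.0% against 0.288% of all genes. Without GFP-low replicate 3, 9 of 50 (18%) were lower at an unadjusted p under 0.05, against 4.69% of all genes in that fit. Procr (EPCR), a surface receptor used to purify long-term HSCs, was at 44.8, 32.9 and 23.8 FPKM in GFP-low and 79.1, 84.7 and 62.9 FPKM in GFP-high KO HSCs. No GFP-low library reached any GFP-high library (difference -1.17, SE 0.22, adjusted p = 0.194; paired adjusted p = 0.0363). Sult1a1, a sulfotransferase, was at 62.4, 47.1 and 13.1 FPKM in GFP-low and 124, 91.8 and 46.0 FPKM in GFP-high cells, lower within each pair although the groups overlapped (difference -1.22, adjusted p = 0.443; paired adjusted p = 0.0388). Mecom (Evi1), a transcription factor needed for HSC maintenance, was at 4.63, 4.11 and 3.75 FPKM in GFP-low and 8.73, 7.29 and 7.72 FPKM in GFP-high cells. Hlf, a transcription factor that marks HSCs, was at 20.3, 18.7 and 11.5 FPKM in GFP-low and 29.1, 34.7 and 23.6 FPKM in GFP-high cells. Ly6a (Sca-1), a sorting antigen of mouse HSCs that interferon raises, was at 118, 66.3 and 35.9 FPKM in GFP-low and 181, 134 and 118 FPKM in GFP-high cells. None of these 3 genes passed, with paired adjusted p of 0.0897, 0.0845 and 0.0762. Other antigens overlapped between gates: Kit, the stem cell factor receptor, was at 165, 162 and 121 FPKM in GFP-low and 149, 157 and 153 FPKM in GFP-high cells, and Slamf1 (CD150) at 12.4, 8.38 and 7.82 FPKM in GFP-low and 7.67, 6.98 and 9.28 FPKM in GFP-high cells. Cd34, which is low on the most quiescent mouse HSCs, was at 36.6, 39.4 and 34.8 FPKM in GFP-low and 24.4, 27.5 and 26.6 FPKM in GFP-high cells, without overlap (difference 0.48, adjusted p = 0.281; paired adjusted p = 0.131). Cd48, an antigen gained by progenitors, was at 6.87, 7.47 and 9.63 FPKM in GFP-low and 2.54, 4.53 and 4.94 FPKM in GFP-high cells (difference 0.87, adjusted p = 0.295; paired adjusted p = 0.0906). Flt3, the lymphoid-primed progenitor receptor, overlapped between gates (2.41, 4.72 and 2.81 FPKM in GFP-low, 3.84, 6.90 and 4.36 FPKM in GFP-high).

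Among secreted factors and receptors on the lower side, Gas6, the ligand of the TAM receptor kinases, was at 6.32, 5.28 and 3.82 FPKM in GFP-low and 17.4, 12.3 and 14.5 FPKM in GFP-high KO HSCs. The gap between the groups was wider than the range within either (difference -1.36, SE 0.20, adjusted p = 0.119; paired adjusted p = 0.0363). Its receptor Axl was at 4.14, 5.10 and 2.26 FPKM in GFP-low and 8.04, 6.38 and 7.19 FPKM in GFP-high cells and did not pass (difference -0.81, paired adjusted p = 0.166). Efna1, an ephrin ligand, was at 8.31, 4.27 and 3.46 FPKM in GFP-low and 17.5, 13.1 and 14.2 FPKM in GFP-high cells (difference -1.40, paired adjusted p = 0.0379). Ltb, lymphotoxin beta, was at 72.6, 61.7 and 33.5 FPKM in GFP-low and 114, 132 and 87.6 FPKM in GFP-high cells (difference -1.03, paired adjusted p = 0.0392). Ebi3, a subunit of heterodimeric cytokines, was at 20.0, 17.8 and 16.6 FPKM in GFP-low and 34.7, 30.6 and 29.9 FPKM in GFP-high cells (difference -0.78, paired adjusted p = 0.0476). In all 3 of these genes every GFP-low library was under every GFP-high library. Pygm, the glycogen phosphorylase, followed at 13.5, 8.10 and 7.74 FPKM in GFP-low and 39.4, 21.9 and 18.1 FPKM in GFP-high cells (difference -1.31, paired adjusted p = 0.0328). Ndn (necdin), an imprinted gene known to restrain HSC proliferation, was at 18.9, 19.2 and 16.9 FPKM in GFP-low and 31.8, 27.8 and 29.3 FPKM in GFP-high cells. It did not pass in spite of tight groups (difference -0.66, SE 0.13, adjusted p = 0.194; paired adjusted p = 0.0845). Of 8 tested imprinted genes 7 had a negative difference (median -0.39), and none passed either test.

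Interferon-stimulated genes were mostly on the lower side, in cells taken 15 days after poly(I:C). Of 59 tested members 47 had a negative difference and 10 a positive one (median -0.26; pair medians -0.28, -0.18 and -0.38). None passed the unpaired test, 1 fell in the paired test (0.176% of all genes did), and 14 (23.7%, against 5.21%) were lower at an unadjusted p under 0.05. Without GFP-low replicate 3 the median was -0.18 and 9 of 59 (15.3%) were lower at that p, against 4.69% of all genes. Ifitm1, a membrane protein of the antiviral response that is also high in HSCs, was at 543, 474 and 427 FPKM in GFP-low and 868, 862 and 1050 FPKM in GFP-high KO HSCs. Its groups were far apart for their spread (difference -0.94, SE 0.14, adjusted p = 0.119; paired adjusted p = 0.0388). Ifit1, which binds viral RNA caps, was at 0.923, 0.845 and 3.37 FPKM in GFP-low and 4.44, 5.22 and 5.87 FPKM in GFP-high cells. It did not pass (difference -1.30, adjusted p = 0.257), but was among the 3 lower calls without GFP-low replicate 3. The transcription factor Irf9 was at 8.82, 7.66 and 9.59 FPKM in GFP-low and 15.2, 12.6 and 11.4 FPKM in GFP-high cells. Its groups did not overlap and it did not pass (difference -0.54, adjusted p = 0.335). Against the direction of the list, Ifi27l2a, an interferon-induced mitochondrial protein gene, was at 4.24, 8.01 and 20.0 FPKM in GFP-low and 2.95, 2.76 and 4.16 FPKM in GFP-high cells (difference 1.23, adjusted p = 0.374).

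All 74 tested oxidative phosphorylation genes encoded in the nucleus had a positive difference, from 0.03 for Ndufb10 to 0.57 for Uqcrq (median 0.25, or 0.15 with libraries rescaled to one upper quartile), and none passed either test. Of the 74, 69 were positive without GFP-low replicate 3, where the median was 0.18. Uqcrq, a subunit of respiratory complex III, was at 56.1, 61.4 and 84.2 FPKM in GFP-low and 43.8, 38.3 and 52.2 FPKM in GFP-high KO HSCs (paired adjusted p = 0.0946). Of 49 tested ribosome biogenesis and Myc target genes 43 had a positive difference (median 0.25, or 0.15 without GFP-low replicate 3), while ribosomal protein genes had a median of -0.09 with 62 of 80 negative (-0.01 without GFP-low replicate 3). Glycolysis genes were balanced at 11 positive and 11 negative of 23 (median 0.00).

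Histone chaperones and H3.3 genes are the ones nearest to the deleted factor. Of 25 tested members 22 had a positive difference (median 0.28; pair medians 0.36, 0.29 and 0.32) and 9 (36.0%, against 6.08% of all genes) were higher at an unadjusted p under 0.05, but none passed either test. Without GFP-low replicate 3 the median was 0.22 and 5 (20%) were higher at that p, against 4.13%. The list's median was similar in WT HSCs (0.24) and in KO MPPs (0.21), so the lean was not particular to KO HSCs. Asf1b, the chaperone form linked to replication, was at 16.2, 22.2 and 37.6 FPKM in GFP-low and 11.3, 11 and 15.6 FPKM in GFP-high KO HSCs (difference 0.88, paired adjusted p = 0.0846). Asf1a, which hands H3.3 to HIRA, overlapped at 11.1, 8.78 and 18.5 FPKM in GFP-low and 8.04, 10.6 and 9.87 FPKM in GFP-high cells. The H3.3 gene H3f3a was at 98.6, 106 and 108 FPKM in GFP-low and 79.2, 80.2 and 93.2 FPKM in GFP-high cells (difference 0.31, adjusted p = 0.396). The other H3.3 gene, H3f3b, was at 278, 309 and 321 FPKM in GFP-low and 249, 254 and 278 FPKM in GFP-high cells (difference 0.22, adjusted p = 0.503). Ubn1 and Cabin1, the partners of HIRA in its complex, differed by 0.13 and -0.13 with overlapping groups.

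**Figure D3:**
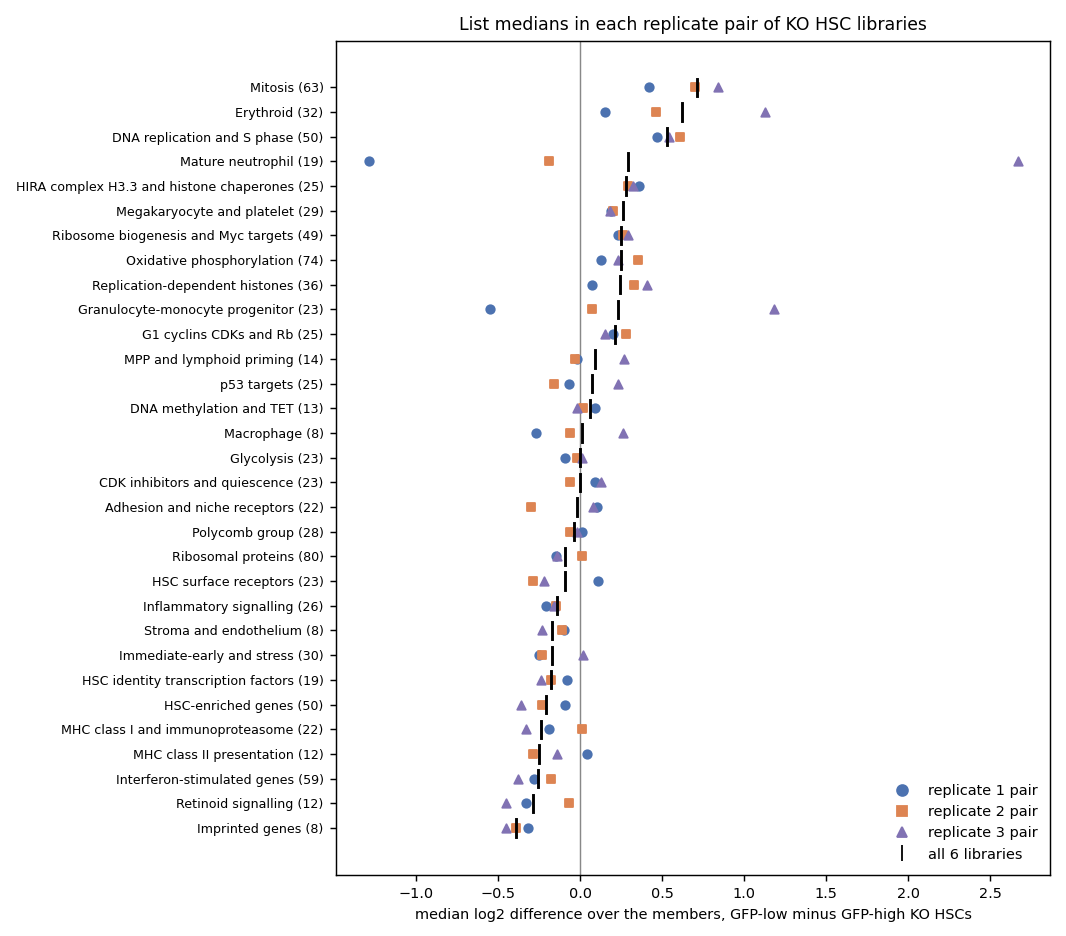
Median log2 difference, GFP-low minus GFP-high KO HSCs, over the tested members of each list with 8 or more (number in brackets), for each replicate pair (coloured symbols) and for all 6 libraries (black bar). Mitosis, replication, erythroid and oxidative phosphorylation medians are positive in every pair, while the mature neutrophil median is -1.29, -0.19 and 2.67 in pairs 1, 2 and 3.

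Mpo, the myeloperoxidase of early granulocytes, was at 48.9, 136 and 422 FPKM in GFP-low and 146, 62.8 and 76.2 FPKM in GFP-high KO HSCs. Elane, neutrophil elastase, was at 13.6, 77.2 and 292 FPKM in GFP-low and 95, 50.7 and 29.9 FPKM in GFP-high cells. For both genes the gates overlapped, and GFP-low replicate 1 was lowest and GFP-low replicate 3 highest of all libraries. Among other granulocyte-monocyte genes Nkg7, a granule membrane protein also found in T and NK cells, was at 46.1, 86.8 and 78.4 FPKM in GFP-low and 29.6, 45.4 and 38.7 FPKM in GFP-high cells and passed the paired test (difference 0.85, paired adjusted p = 0.0388). Without GFP-low replicate 3 the median of the mature neutrophil list turned to -0.78, against 0.29 with it. In the fit without it 7 of 19 members (36.8%) were lower at an unadjusted p under 0.05, against 4.69% of all genes, and 0 were higher. The list's median was -0.68 in WT HSCs and -0.5 in KO MPPs, without a test of the difference. Eosinophil granule genes were singled out after their values were seen. Prg2, the eosinophil major basic protein, was at 0.878, 0.349 and 15.9 FPKM in GFP-low and 40.5, 548 and 191 FPKM in GFP-high cells (difference -5.55, SE 1.07, adjusted p = 0.194; paired adjusted p = 0.0529). Ear1, an eosinophil ribonuclease, was at 0, 0.134 and 9.36 FPKM in GFP-low and 9.08, 34.8 and 46.0 FPKM in GFP-high cells and passed the paired test (difference -3.50, paired adjusted p = 0.0379). The summed level of the 7 listed eosinophil genes was 2.47, 2.18 and 60.1 FPKM in GFP-low and 58.0, 672 and 308 FPKM in GFP-high libraries, so that GFP-low replicate 3 lay above GFP-high replicate 1. On the higher side Cpa3, a mast cell protease also found in early progenitors, was at 9.86, 14.0 and 9.40 FPKM in GFP-low and 3.21, 4.51 and 2.54 FPKM in GFP-high cells (difference 1.46, adjusted p = 0.128; paired adjusted p = 0.0328). C1qb, a complement subunit of macrophages, passed the paired test on few reads, at 4.81, 3.77 and 9.23 FPKM in GFP-low and 1.25, 0.503 and 2.65 FPKM in GFP-high cells (paired adjusted p = 0.0363). C1qa, another subunit of the same complement protein, overlapped at 0.393, 0.563 and 3.77 FPKM in GFP-low and 2.63, 0.702 and 1.94 FPKM in GFP-high cells. Of 8 tested macrophage genes 4 had a positive and 4 a negative difference (median 0.01). The part of RNA from such other cells in these values was not tested.

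**Figure D4:**
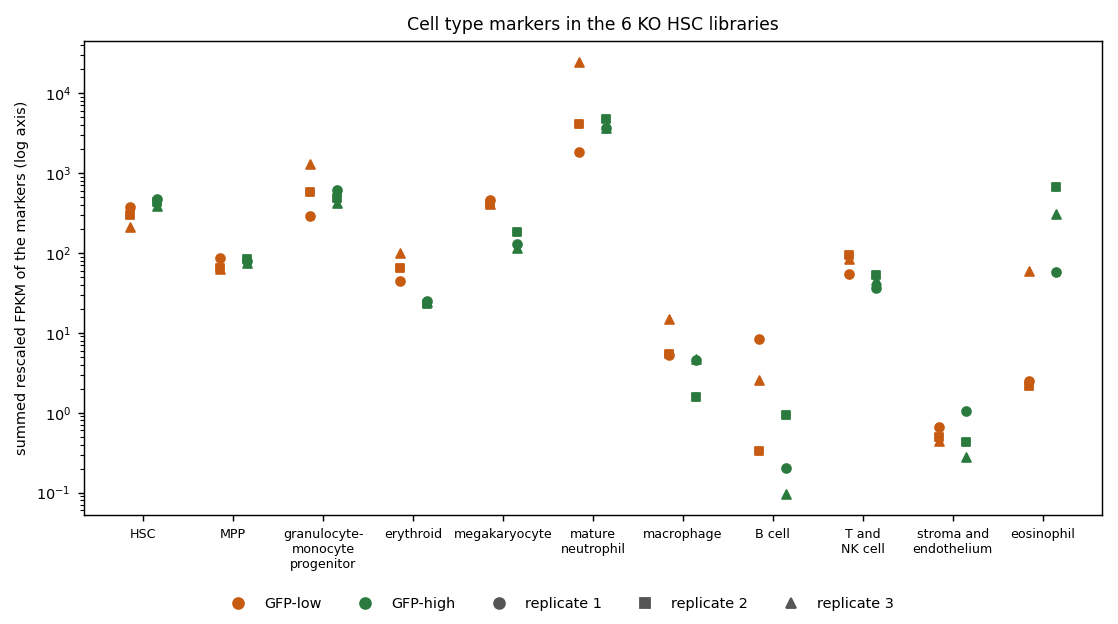
Summed rescaled FPKM of cell type markers (y axis, log scale) in the GFP-low (left of each pair, orange) and GFP-high (right, green) KO HSC libraries, by replicate symbol. Megakaryocyte and erythroid sums are higher in all GFP-low libraries, but they contain the already called genes Pf4, Itga2b and Gata1. These 2 sums are thus no evidence separate from those genes. The neutrophil sum reaches 24200 FPKM in GFP-low replicate 3 alone. The eosinophil genes, chosen after their values were seen, are lowest in GFP-low replicates 1 and 2.

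The same gates in WT HSCs gave differences in the same direction for most of these genes. KO and WT HSCs have no library in common, but share the tables. A technical difference between the tables could thus give the same direction in both genotypes, which cannot be told apart from the gate. Of the 31 genes higher in the paired KO test 29 had a positive difference in WT HSCs, and of the 19 lower genes all 19 had a negative one. The share of all tested genes with the same sign was not counted, here or for the KO MPPs below. Across 4887 genes with a mean log2 level of 3 or more, the KO and WT differences correlated at r = 0.60, which describes genes and not independent replicates. A test of the difference between KO and WT found 0 of 11259 genes in limma (393 at an unadjusted p under 0.05, 3.49%; smallest adjusted p 0.999). Mitosis genes had a median of 0.71 in KO and 0.48 in WT HSCs, and DNA replication genes 0.53 in KO and 0.38 in WT HSCs, without a test of the difference. Interferon-stimulated genes had medians of -0.26 in KO and -0.18 in WT HSCs, and HSC-enriched genes -0.21 in KO and -0.14 in WT HSCs.

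The estimates of some lineage genes differed in size between genotypes, but none passed that test. The intervals given here are not adjusted for the number of genes tested. The Gata1 difference was 2.20 in KO and 0.98 in WT HSCs (KO minus WT 1.22, 95% interval 0.34 to 2.10, adjusted p = 0.999). That of Pf4 was 2.46 in KO and 1.44 in WT HSCs (1.02, interval 0.04 to 2.00), and that of Cenph 1.29 in KO and 0.58 in WT HSCs (0.72, interval 0.20 to 1.23). Tuba8 differed by 1.71 in KO and 1.33 in WT HSCs (0.39, interval -0.14 to 0.92). Cpa3 stood at 1.46 in KO and 0.19 in WT HSCs (1.27, interval 0.45 to 2.09). These genes were named for their KO difference, so a smaller value in WT is no evidence of a genotype effect. The erythroid list had a median of 0.62 in KO (0.33 without GFP-low replicate 3) and -0.24 in WT HSCs, without a test of the difference. Klf1 had 1.28 in KO and -0.60 in WT HSCs (1.89, interval 0.86 to 2.91, adjusted p = 0.999). Among genes with a mean log2 level of 3 or more, Klf1 had the smallest unadjusted p of that test. Its interval is therefore that of a gene at the top of a ranking.

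**Figure D5:**
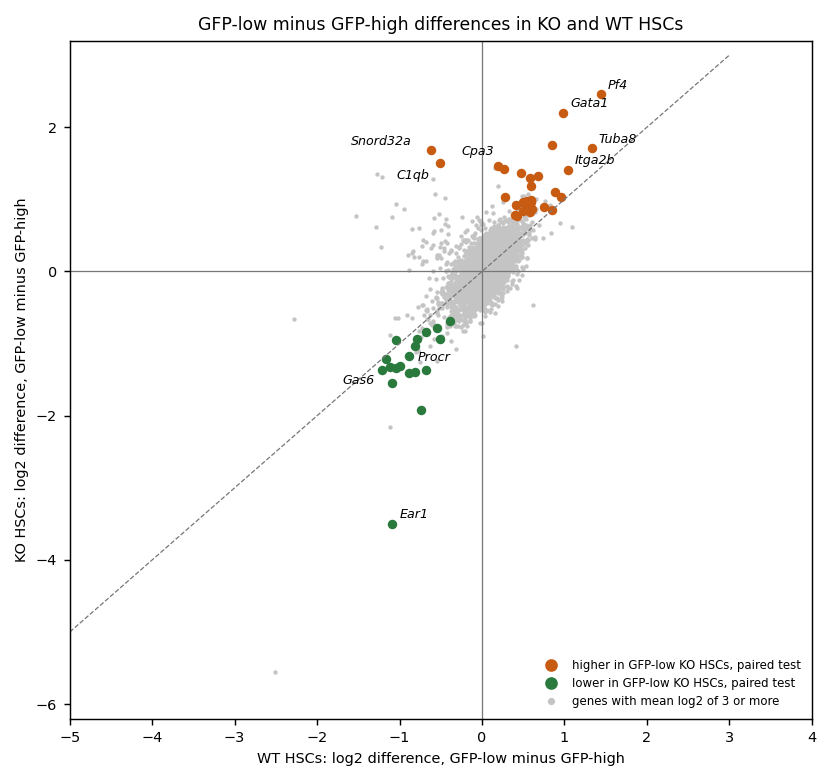
Log2 difference, GFP-low minus GFP-high, in KO HSCs (y axis) against WT HSCs (x axis) for genes with a mean log2 level of 3 or more (grey) and for the genes past the paired KO test (orange higher, green lower); the dashed line marks equal differences. Of the coloured genes all but C1qb and Snord32a lie on the same side of 0 in both genotypes.

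KO MPPs sorted by the same gates shared the direction for the cell cycle genes but not for all lineage genes. Of the 31 higher genes 30 were positive and of the 19 lower genes 19 were negative in KO MPPs, and the mitosis median was 0.71 in KO HSCs and 0.52 in KO MPPs. Pf4 differed by 2.46 in KO HSCs and by -0.82 in KO MPPs, and Tuba8 by 1.71 in KO HSCs and 0.14 in KO MPPs. Gata1 differed by 2.20 in KO HSCs and 2.38 in KO MPPs. In the test of HSCs against MPPs 0 of 11333 genes passed in limma (337 at an unadjusted p under 0.05, 2.97%). The smallest adjusted p was 0.934, that of both Tuba8 and Pf4.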

How the data were processed

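Polyadenylated RNA of sorted HSCs and MPPs was turned into libraries with SMART-Seq2 and Nextera XT, per the labels' protocols. The deposited tables, 1 for each gate and cell type, hold FPKM values per gene and library made by the authors. The submitters' processing notes name STAR, DESeq2, HOMER and mm10, with no role or version, and strandedness is not given in the sources used here, so overlapping genes and close paralogs are uncertain. All 24 value columns of these tables belong to samples (0 to none). The tables of unlabelled cells were not used here.

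The 6 KO HSC columns were joined by gene ID (15695 genes in both tables, of 16476 in the GFP-low and 16488 in the GFP-high table). They were rescaled together by the median of ratios over genes above 0 in all. Genes needed 1 FPKM in at least 3 libraries, which kept 10777. Tests were fitted to log2(FPKM + 1) by limma (version 3.58.1, R 4.3.3), 2-sided and with an intensity trend, in the main fit without a block. Adjusted p values are Benjamini-Hochberg over all tested genes, with a threshold of 0.05 (deposited FPKM are not counts). A paired fit added the replicate number as a block. The numbers were taken as pairs because every same-number correlation of deviations was over 0.1. Libraries of the same number also agreed in sex: replicate 2 of either gate had Y-linked transcripts and almost no Xist, while replicates 1 and 3 were high in Xist. Sex thus sets replicate 2 apart but cannot tell pair 1 from pair 3, so it is weak evidence of pairing. The differences between KO and WT HSCs and between KO HSCs and KO MPPs were contrasts of 12 libraries each. Intervals are 95% intervals from limma, and the smallest p an exact permutation of 3 against 3 could give is 0.1, so none was run.

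Whole reads were recovered from the FPKM steps for 99.994% of genes (within 0.001 of a whole number; 1 gene, the ribosomal RNA Rn45s, was left out), and limma's voom on these reads was an alternative. Rn45s held 16.6% to 22.5% of the FPKM sum in GFP-low and 18.2% to 23.4% in GFP-high libraries. GFP-low libraries held 10537 to 10631 genes at 1 FPKM, and GFP-high libraries 10589 to 10794. Replicates of a group differed beyond counting noise (chi-square per gene of at least 11.4). Alternatives were other pseudocounts, filters, scalings, the block, voom, weights, a joint fit with WT HSCs and each library left out.

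Genes named are those past a test, the 10 higher and 10 lower with the smallest p among genes with a mean log2 level of 3 or more and groups that do not overlap, a fixed panel, and for each of 34 lists the members past the test or, failing that, those with the smallest p. From these the text takes a part, with further list members as examples; some genes of the rule are not reported here. Members and lists were chosen with earlier results of these data known. Gene coordinates and promoters (250 bases before to 50 after the start) are RefSeq's on GRCm38.p6.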

Additional observations from a re-analysis of the deposited data

How the results depend on the processing

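Of the unpaired calls (4, all higher), pseudocounts of 0.1 or 0.5 gave 3, the values as deposited and array weights gave 4, a minimum of 5 FPKM and the genes listed in either table gave 5. No filter on low values, rescaling to one total or to one upper quartile, and no intensity trend gave 0 in limma. The recovered reads with voom gave 7 (6 higher and 1 lower). Leaving out 1 library gave 0 to 5 calls, of which 0 to 4 higher and 0 to 3 lower. The replicate block gave 50 (31 higher and 19 lower), voom with the block 258 (141 and 117), and the joint fit with WT HSCs 85 (58 and 27). Settings added after the data were seen were voom with the block and the block fit with a pair left out. Without pair 1 the block fit gave 23 (16 and 7), without pair 2 it gave 3 (2 and 1), and without pair 3 it gave 167 (88 and 79). The tests of KO against WT HSCs and of KO HSCs against KO MPPs gave 0 under each alternative run. The cause of these shifts was not tested.

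Differences of single genes kept their sign except where they were near 0 or leaned on 1 library. Hira turned to -0.06 without GFP-low replicate 2 and to -0.02 in the block fit without pair 3. Kit turned to 0.09, Mpo to -0.12 and Elane to -0.66 without GFP-low replicate 3, and to 0.09, -0.23 and -1.06 in the block fit without pair 3. Elane was -0.02 without GFP-high replicate 3. Vwf, at 0.00, ran from 0.00 to 0.10 in the settings that turned its sign (0.01, 0.03, 0.05, 0.06 and 0.08 among them). Over the fits that leave out 1 library Hira ran from -0.06 to 0.36, Kit from -0.13 to 0.09, Mpo from -0.12 to 1.42, Elane from -0.66 to 1.5 and Vwf from -0.16 to 0.10. List medians of mitosis, DNA replication, erythroid, megakaryocyte, oxidative phosphorylation, HSC-enriched and interferon-stimulated genes kept their sign under every alternative run, and that of mitosis ran from 0.44 to 0.87. With 3 libraries a gate at this depth, low genes such as Hira could not show small differences.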
